A study of Mus musculus with 170 samples.

Results

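Cytochrome P450 enzymes are heme-containing monooxygenases of the endoplasmic reticulum that receive electrons from the reductase encoded by Por and insert oxygen into drugs, inhaled chemicals, steroids and fatty acids. Enzymes of families 2 and 3 act mostly on foreign compounds and steroids, and those of family 4 mostly hydroxylate fatty acids and eicosanoids. In mouse lung much of this activity is held by the club cells of the bronchiolar lining, of which Cyp2f2, the enzyme that oxidises naphthalene, is a standard marker. The genes described here were all gene symbols of the count table that name a family 2, 3 or 4 P450, with the probes of one symbol summed, and that reached at least 1 CPM (counts per 1000000 counts of the library) in 4 or more libraries. This gave 24 of the 72 such symbols in a table of 21450 symbols, with 14 of 48 in family 2, 1 of 7 in family 3 and 9 of 17 in family 4. Cyp2b9 and Cyp2d10 entered with 4 libraries each, and Cyp4a31 stayed out with 3. On the mouse genome 8 of the 24 lie on chromosome 7, among them the neighbouring Cyp2a, Cyp2b, Cyp2f and Cyp2s genes, and 6 are the Cyp4f genes of chromosome 17.

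Lungs and hearts came from female mice of the outbred CD-1 strain whose age is not given in the sources used here. Smoke condensate, 50 µL of saline with 2 mg/mL of particulate matter, was placed in the lungs by oropharyngeal aspiration, so the exposure was a single bolus of collected particles and not inhaled smoke. The condensates were of 10 kinds, from flaming and from smoldering combustion of 5 fuels: eucalyptus, peat, pine, pine needles and red oak. Other mice received saline or bacterial lipopolysaccharide (LPS). Lungs were taken at 4 h and 24 h and hearts at 24 h, with 6 mice in each group and 4 in each LPS group; hearts were profiled for saline and for red oak and peat smoke only. By the numbers in the sample titles, each heart came from a mouse whose lung was also profiled.

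The 170 libraries held 4.43 to 8.05 M probe counts (M, 1000000 counts; median 6.59 M). In 6 lung libraries of the 24 h smoke groups, fewer than 13000 genes had a count, 9886 to 12545 against 13135 to 15644 in all others, and results that rest on them are given with and without them. Whole-tissue RNA was measured, so that fewer cells of a type and less RNA per cell cannot be told apart. Levels below are CPM after scaling by the trimmed mean of M values (TMM CPM) unless the library total is named, and each probe set has its own efficiency, so levels were compared between samples and not between genes. The lungs, the hearts and the saline lungs and hearts together were each scaled by themselves, so the same library has another value in the comparison of the organs than elsewhere. Of the 24 genes, 18 passed the filter on low counts in lung and were tested among 14458 genes, 11 did so in heart among 11179 and 14 in the comparison of the organs among 11821. A gene was called changed at a Benjamini-Hochberg adjusted p under 0.05 in the quasi-likelihood test of edgeR, adjusted over all genes tested, and log2 changes are given with their standard error (SE).

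The stretches before the transcription starts of 4 members are shown because Cyp2f2, Cyp2a4 and Cyp4f18 were called 24 h after LPS and Cyp2a5, which was not, is the close relative of Cyp2a4. Each is the 250 bases upstream of a start in RefSeq (build GRCm38.p6), read 5′ to 3′ on the gene's strand. For Cyp4f18 the RefSeq gene reaches chr8 position 72009668, so the start used is a downstream one and part of its stretch lies inside the gene. They are chr7:27119705-27119954 on the plus strand for Cyp2f2, chr7:26306942-26307191 on the plus strand for Cyp2a4, chr7:26835089-26835338 on the plus strand for Cyp2a5 and chr8:72009627-72009876 on the minus strand for Cyp4f18. Capitals mark matches on either strand to any of 4 motifs. The TATA motif was TATAAA. The motif bound by C/EBP factors was TTGCNNAA. The third was CCAAT, which reads ATTGG on the other strand. The motif bound by FOXA factors was TGTTTAC. Overlap between motifs was allowed.
Cyp2f2: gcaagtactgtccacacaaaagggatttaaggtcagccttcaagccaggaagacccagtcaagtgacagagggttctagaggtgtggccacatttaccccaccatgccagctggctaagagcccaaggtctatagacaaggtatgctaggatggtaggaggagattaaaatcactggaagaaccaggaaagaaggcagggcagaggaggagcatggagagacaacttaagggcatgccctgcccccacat
Cyp2a4: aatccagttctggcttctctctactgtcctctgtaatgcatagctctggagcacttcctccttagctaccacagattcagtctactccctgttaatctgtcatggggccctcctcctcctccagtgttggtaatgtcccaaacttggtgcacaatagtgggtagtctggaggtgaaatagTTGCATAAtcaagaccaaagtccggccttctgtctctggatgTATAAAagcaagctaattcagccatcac
Cyp2a5: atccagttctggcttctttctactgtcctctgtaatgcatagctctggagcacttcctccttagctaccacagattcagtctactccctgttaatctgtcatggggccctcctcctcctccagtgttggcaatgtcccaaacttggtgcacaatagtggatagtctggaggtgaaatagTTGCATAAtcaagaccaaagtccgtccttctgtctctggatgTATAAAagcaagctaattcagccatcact
Cyp4f18: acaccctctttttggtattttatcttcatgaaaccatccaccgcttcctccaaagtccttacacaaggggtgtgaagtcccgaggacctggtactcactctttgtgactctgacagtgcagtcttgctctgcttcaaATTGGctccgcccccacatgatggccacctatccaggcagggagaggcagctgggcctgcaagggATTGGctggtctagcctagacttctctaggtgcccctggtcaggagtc
Cyp2a4 and Cyp2a5 shared a TATAAA and a TTGCNNAA match at nearly the same distance from the start, Cyp4f18 held 2 CCAAT matches, and Cyp2f2 held none of the 4 motifs. Among 32851 mouse promoters of 300 bases (250 before and 50 after the start), 13.6% held TATAAA, 10.8% TTGCNNAA, 37.4% CCAAT and 3.65% TGTTTAC, and among the 21 members with an entry the counts were 6, 4, 11 and 0. Over those 300 bases the Cyp2a4 and Cyp2a5 promoters were 98.3% identical, with 5 mismatches in 299 aligned bases. Their longest coding transcripts (GENCODE M21) were 98.2% identical over 1739 aligned bases, and Cyp2b9 and Cyp2b10 86.3% over 1881, so a probe or read of one gene of the Cyp2a pair can be counted for the other, and the split of counts between Cyp2a4 and Cyp2a5 is uncertain.

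In saline mice at 24 h most tested members had lower levels in heart than in lung. The rule that kept members favors lung, which supplied 140 of the 170 libraries. Cyp2a4, Cyp2b9, Cyp3a13, Cyp4f15, Cyp4f18, Cyp4f37 and Cyp4f39 reached 1 CPM in lungs only, so the lean to lung is partly built in. Heart levels were lower for 12 of the 14 members tested and higher for none, where 76.5% of all genes tested differed between the organs, 41.7% lower and 34.8% higher in heart. The median log2 difference, heart against lung, was -3.41 over the 14 members and -0.19 over all genes. Cyp2f2 was at 362.8 ± 77.7 TMM CPM in lung (SD, n = 6 mice here and below) and at 0.354 ± 0.247 in heart, a log2 difference of -9.90 ± 0.37 (SE, edgeR adjusted p = 6.04e-11). Every saline lung held at least 266.0 TMM CPM of Cyp2f2 and every saline heart at most 0.739, so the organs did not overlap. Hearts and lungs were of the same 6 mice, and the SE and p of this comparison come from a fit that left out this pairing. With the animal as replicate block 12 of 14 members were called, at 74.9% of all genes.

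Members of the Cyp2a, Cyp2b and Cyp2s subfamilies were also far lower in heart. Cyp2a5, the coumarin hydroxylase of mouse, was at 660.1 ± 335 TMM CPM in lung and 0.719 ± 0.543 in heart (log2 -9.84 ± 0.57), and Cyp2a4, a testosterone hydroxylase, at 21.4 ± 6.26 and 0.137 ± 0.176 (log2 -7.14 ± 0.51). Cyp2b10, the mouse target of the constitutive androstane receptor, was at 1620.0 ± 517 in lung and 12.5 ± 21.5 in heart (log2 -7.01 ± 0.90); a single saline heart held 55.96 TMM CPM of it and set the heart mean, against a heart median of 2.77. Cyp2s1, a P450 of airway and other epithelia, was at 244.9 ± 142 in lung and 2.34 ± 1.61 in heart (log2 -6.69 ± 0.58). These 4 genes were above every heart in each of the 6 lungs.

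The called family 4 members and Cyp2d22 were lower in heart by smaller steps. Cyp4v3, the mouse counterpart of the human fatty acid hydroxylase that is mutated in Bietti crystalline dystrophy, was at 110.6 ± 73.97 in lung and 5.40 ± 1.79 in heart (log2 -4.35 ± 0.41). Cyp4b1, which hydroxylates fatty acids and activates several lung toxins, was at 65.2 ± 43.6 and 22.1 ± 7.53 (log2 -1.57 ± 0.41, adjusted p = 0.0027), and its lungs and hearts overlapped. The Cyp4f genes Cyp4f13, Cyp4f16 and Cyp4f17, of a subfamily that hydroxylates leukotrienes and other fatty acids, differed by log2 -2.15 ± 0.54, -1.73 ± 0.27 and -2.47 ± 0.55. Cyp2d22, the mouse Cyp2d gene most like the human debrisoquine hydroxylase, differed by log2 -1.80 ± 0.30. Cyp3a13, a drug and steroid oxidising enzyme, had 356 counts over the 6 saline lungs and 0 over the 6 hearts. It passed the filter through the lungs alone, so its call as lower in heart (edgeR adjusted p = 1.19e-05) was partly built in. With 3 counts taken as the limit that a count of 0 over the group allows, Cyp3a13 was at least 124.3-fold higher in lung in CPM of the library total, and Cyp4f15, with 262 counts in lung and 0 in heart, at least 91.47-fold higher.

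The other 2 tested members were not called. Cyp2e1, the ethanol-oxidising P450, was at 3.24 ± 1.44 TMM CPM in lung and 6.05 ± 3.78 in heart (log2 +0.89 ± 0.45, adjusted p = 0.0832; called without replicate 6), and Cyp2j6, of a subfamily that makes epoxides of arachidonic acid, was also not called (adjusted p = 0.638; named after its value was seen). Cyp2u1, a fatty acid hydroxylase that failed the filter in this fit and was singled out after its values were seen, was at 3.58 ± 1.62 TMM CPM in the 6 saline hearts and at 0.0727 ± 0.132 in the 6 saline lungs. Over all 30 mice with both organs, Cyp2u1 was higher in the heart in 30, with medians of 3.42 CPM of the library total in heart and 0 in lung. By the same count Cyp2f2, Cyp2a4, Cyp2a5, Cyp2b10, Cyp2s1, Cyp4f13, Cyp4f16, Cyp4f17, Cyp4f18 and Cyp4v3 were higher in the lung of all 30 mice, and Cyp2e1 in the lung of 12 and in the heart of 18. Markers of the organs matched the labels. Each organ on its own scale, summed club cell markers (9 genes, Cyp2f2 left out) were 22660 to 52430 TMM CPM in saline lungs at 24 h and 15.36 to 22.99 in saline hearts, and summed cardiomyocyte markers (7 genes) 19020 to 25390 in saline hearts and 344.6 to 1278 in those lungs. All 6 hearts were on sequencing plate 2 and 5 of the 6 lungs were, by the titles.

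**Figure D1:**
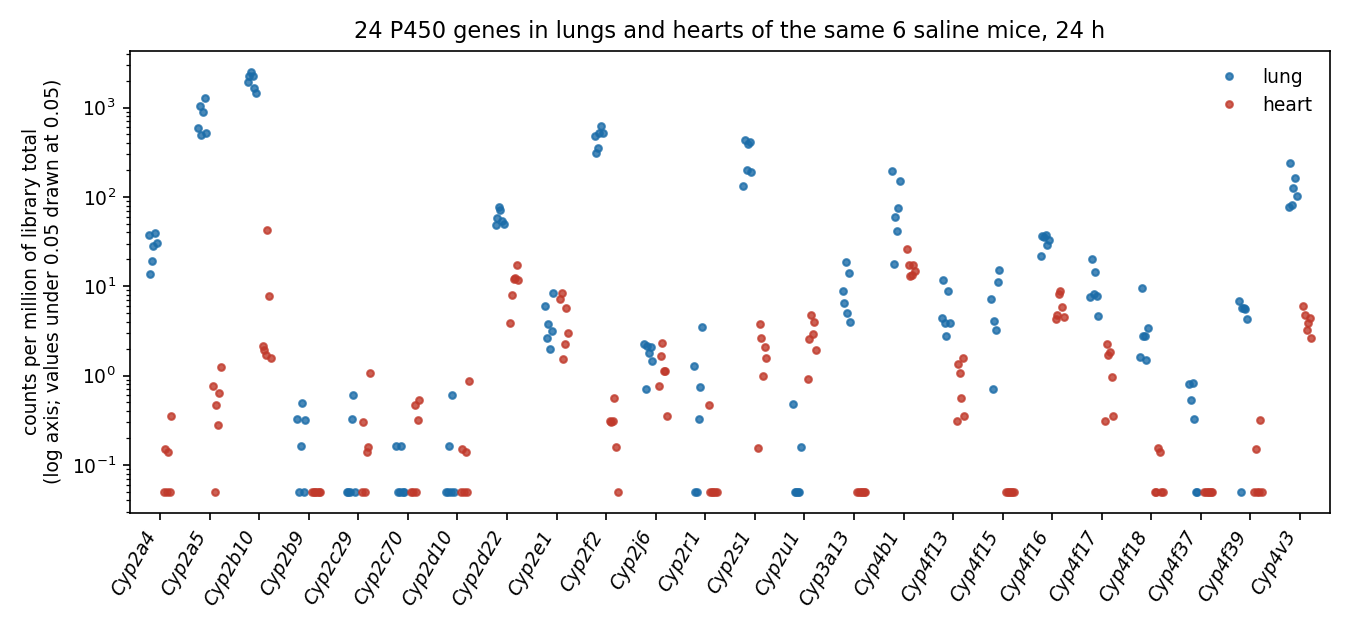
CPM of the library total (log axis, values under 0.05 drawn at 0.05) of the 24 P450 genes in the 6 lungs (blue) and 6 hearts (red) of saline mice at 24 h, 1 point per library. Lung and heart points are far apart for Cyp2f2, Cyp2a5, Cyp2b10 and Cyp2s1, overlap for Cyp2e1 and Cyp2j6, and Cyp2u1 is higher in each of the 6 hearts than in any of the 6 lungs.

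LPS is a component of the bacterial outer membrane that draws neutrophils into the lung. At 4 h, 2 of the 18 members fell, Cyp3a13 and Cyp4f15, and none rose, where 8.98% of all genes tested were called, 5.48% higher and 3.49% lower. At 24 h, 2 members fell, Cyp2f2 and Cyp2a4, and 1 rose, Cyp4f18, where 12.1% of all genes were called, 7.58% higher and 4.51% lower. The median log2 change was -0.55 over the 18 members and -0.04 over all genes at 4 h, and -0.53 and -0.12 at 24 h. At 4 h 13 members and at 24 h 14 members had a log2 change below 0, as did 52.99% and 57.86% of all genes.

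Cyp2f2 stood at 435, 435, 352, 550, 616 and 491 TMM CPM in the 6 saline lungs of 24 h and at 106.8, 43.3, 112.8 and 175.8 in the 4 LPS lungs. Every LPS lung was below every saline lung. The means were 479.7 ± 93.8 and 109.7 ± 54.2 (SD), a log2 change of -2.13 ± 0.38 (edgeR adjusted p = 4.56e-06). At 4 h the 6 saline lungs held 485 to 864 and the LPS lungs 428, 238, 284 and 513, so that 1 LPS lung reached into the saline range, and the log2 change of -0.92 ± 0.36 did not pass (adjusted p = 0.0912).

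The Cyp2a pair lay beside Cyp2f2 in direction. Cyp2a4 was at 34.18, 19.26, 19.17, 29.93, 39.01 and 28.44 TMM CPM in the saline lungs of 24 h and at 7.07, 1.02, 5.29 and 13.2 in the LPS lungs. The groups did not overlap, and Cyp2a4 fell by 2.09 on the log2 scale (SE 0.69, adjusted p = 0.0303). Cyp2a5 was at 490.4 to 1482 in saline and at 229.7, 134.5, 236.4 and 408.4 under LPS, also without overlap, but its log2 change of -1.76 ± 0.64 missed the threshold (adjusted p = 0.0551), as did that of -1.68 ± 0.63 at 4 h (0.0826). Saline lungs themselves differed in Cyp2a5 by 3.02-fold at 24 h and by 5.64-fold at 4 h, from 711.3 to 4009 TMM CPM, which is a wider spread than that of Cyp2f2.

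Cyp3a13 and Cyp4f15, both low in lung, were lower 4 h after LPS. Cyp3a13 was at 7.84, 9.20, 12.2, 8.26, 8.57 and 2.80 TMM CPM in saline lungs and at 1.54, 2.85, 2.99 and 1.13 in LPS lungs. A single saline lung reached into the LPS range. The means of 8.14 ± 3.04 and 2.13 ± 0.93 gave a log2 change of -1.92 ± 0.63 (adjusted p = 0.0377). Cyp4f15 was at 27.3, 13.4, 10.9, 14.6, 9.42 and 13.1 in saline and at 2.73, 2.55, 3.65 and 6.21 under LPS, with no overlap and a log2 change of -1.97 ± 0.61 (adjusted p = 0.0231). At 24 h Cyp3a13 differed by log2 -1.36 ± 0.61 (adjusted p = 0.147) and Cyp4f15 by -1.70 ± 0.64 (0.0633). Of 16 other settings Cyp3a13 passed in 7 and Cyp4f15 in 11, with adjusted p from 0.00827 to 0.138 and from 0.000277 to 0.0976, and with 1 library left out, 0 to 2 members were called. Of the fits that left out 1 library, both were still called only without saline replicate 6, and neither was called without LPS replicate 1, 2 or 3 (adjusted p = 0.100, 0.066 and 0.0601 for Cyp3a13, and 0.0713, 0.0976 and 0.0696 for Cyp4f15). The fits without LPS replicate 1 and without LPS replicate 3 each called 1 other member.

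Cyp4f18, the leukotriene B4 hydroxylase of mouse neutrophils, was the only member that rose under LPS. At 24 h it was at 1.473, 13.51, 2.785, 2.958, 1.495 and 3.16 TMM CPM in saline lungs and at 17.86, 32.02, 24.53 and 19.01 in LPS lungs. All 4 LPS lungs were above the highest saline lung, and the log2 change was +2.58 ± 0.82 (adjusted p = 0.0222). At 4 h the saline lungs held 2.64 to 6.50 and the LPS lungs 5.12, 3.31, 5.82 and 7.53, a log2 change of +0.35 ± 0.83 (adjusted p = 0.886). Of the neutrophil markers, 8 of 9 rose at each time, with sums of 48.2 to 87.7 TMM CPM in saline and 326.6 to 1405 under LPS at 4 h, and of 21.2 to 51.3 and 345.4 to 541.8 at 24 h. Of the macrophage markers, 0 of 7 tested were called at 4 h in edgeR and 3 of 7 rose at 24 h (Adgre1, Marco and Cd68). Their median log2 change at 24 h was +0.11. The summed macrophage markers (8 genes) at 24 h were 384.0 to 1290 TMM CPM in saline and 594.1 to 1185 under LPS, within the saline range. The part of these cells in the Cyp4f18 result was not tested. Cyp2f2 passed in 16 of 16 other settings at 24 h, Cyp4f18 in 12 and Cyp2a4 in 11. Without saline replicate 5 or LPS replicate 2 only Cyp2f2 was called (adjusted p = 0.0597 and 0.0741 for Cyp4f18, 0.058 and 0.181 for Cyp2a4). Without LPS replicate 4, or without the 6 libraries of few genes, Cyp2a5 and Cyp4f15 were called as well; in the latter fit 18.4% of all genes were called at 24 h and 14.8% at 4 h.

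Whether the LPS effect differed between the times was tested as an interaction, and no member passed (edgeR, 2 of 18 at an unadjusted p under 0.05; DESeq2, 0 called), where 0.581% of all genes did. The smallest adjusted p was 0.264, and for Cyp2f2 the log2 change at 24 h was lower than at 4 h by -1.21 ± 0.49 (adjusted p = 0.392). Most of the 24 h lungs were on the other plate than the 4 h lungs, and the plate was a term of the fit. The saline lungs of the 2 times differed in no member (0 of 18, edgeR and DESeq2, against 0% of all genes; 4 at an unadjusted p under 0.05), with Cyp2a4 at 101.2 ± 46.1 TMM CPM at 4 h and 28.3 ± 7.96 at 24 h (adjusted p = 0.469).

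**Figure D2:**
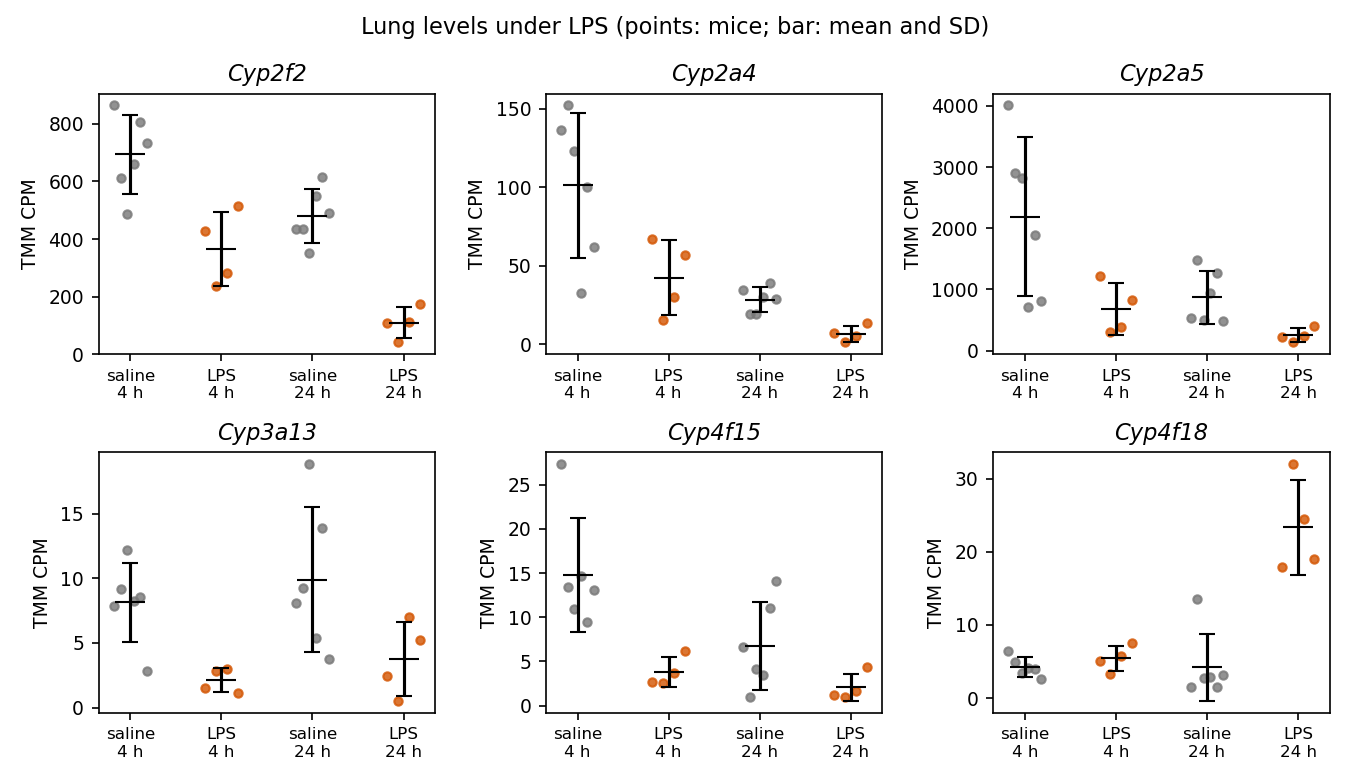
TMM CPM of 6 P450 genes in lungs of saline (gray) and LPS mice (orange) at 4 h and 24 h, 1 point per mouse, with mean and SD. Cyp2f2 and Cyp2a4 at 24 h show LPS lungs below all saline lungs, Cyp4f15 shows this at 4 h, and Cyp4f18 shows the 4 LPS lungs of 24 h above all saline lungs.

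Other genes of oxidative metabolism were lower under LPS as well. Of 14 tested phase I enzymes outside the P450s, 4 fell and none rose at 4 h, and 10 fell and none rose at 24 h. Among those that fell at 4 h were the alcohol dehydrogenase gene Adh1 and the aldehyde oxidase gene Aox3. At 24 h the carboxylesterase gene Ces1f fell by 3.51 ± 0.65 on the log2 scale, to 0.934 ± 0.862 TMM CPM. Of the 10 partner genes of the P450 system, Por, the reductase, and Alas1, the first enzyme of heme synthesis, fell at 4 h by 0.99 ± 0.27 and 1.14 ± 0.28, and Por and the heme-binding membrane protein gene Pgrmc1 fell at 24 h by 0.98 ± 0.28 and 1.24 ± 0.32; none rose.

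Among 15 tested nuclear receptors and other regulators of these families, the glucocorticoid receptor gene Nr3c1 rose at 4 h (log2 +0.46 ± 0.15, adjusted p = 0.0326) and the fatty acid receptor gene Ppara fell at 24 h (from 16.3 ± 3.21 to 8.06 ± 1.75 TMM CPM, adjusted p = 0.00961); the others were not called. Of the 2 tested family 1 genes, Cyp1a1, a classic aryl hydrocarbon receptor target, fell at 24 h from 8.56 ± 3.50 to 0.272 ± 0.225 TMM CPM, and neither was called at 4 h. Among 16 genes of eicosanoid synthesis and epoxide hydrolysis, Alox5ap and Ptges, which serve leukotriene and prostaglandin synthesis, rose at both times, Tbxas1, the thromboxane synthase gene, rose at 24 h, and Ephx1, the microsomal epoxide hydrolase gene, fell at both.

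Markers of airway cells and of other cell types also differed under LPS. Of the 9 club cell markers 0 were called at 4 h in edgeR and 4 fell at 24 h (Scgb3a2, Chad, Scgb3a1 and Scgb1a1), with sums of 22660 to 52430 TMM CPM in saline and 11900 to 24560 under LPS. These sums were mostly Scgb1a1, with means of 31430 and 16660 TMM CPM where the median sums were 34880 and 19270. Scgb1a1, the most abundant secreted protein gene of club cells, fell by 0.90 ± 0.32 on the log2 scale at 24 h (adjusted p = 0.0446), against 2.13 ± 0.38 for Cyp2f2; the difference between the genes was not tested. Of 10 ciliated cell markers 2 fell at each time, and of the 8 tested alveolar type 2 markers none was called at either time. No defining club cell marker was at 0 in all libraries of a lung group, and the part of club cell number in the Cyp2f2 result was not tested. Of 7 tested cardiomyocyte markers none was called at 4 h and 4 fell at 24 h, and their sums in these lungs were 344.6 to 1278 TMM CPM in saline and 148.8 to 214.6 under LPS at 24 h. Endothelial markers fell in 2 of 8 at 24 h (Vwf and Emcn), with sums of 4012 to 8636 TMM CPM in saline and 3512 to 4307 under LPS. Fibroblast markers fell in 1 of 6 (Dcn, sums of 2484 to 11530 and 3814 to 4952) and adipocyte markers in 2 of 5 (sums of 4.86 to 19.1 and 1.24 to 2.41) at 24 h. At 4 h B cell markers fell in 2 of 4, with sums of 93.9 to 327.9 in saline and 61.6 to 91.2 under LPS. The exocrine pancreas markers Pnlip and Cela2a and the hepatocyte marker Alb rose at 4 h, and Pnlip rose at 24 h, each at mean levels under 2 TMM CPM. The part of these cells in the P450 results was not tested.

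Across the lungs of saline and smoke mice, without LPS (77 on plate 1 and 55 on plate 2), Cyp2f2 followed the summed club cell markers. In saline lungs of 24 h that sum was mostly Scgb1a1, so the other markers weigh little in it. Pearson's r between the log2 levels was 0.797 and Spearman's rho 0.716 (each permutation p = 1e-05, the smallest that 100000 permutations can give, and 1e-05 after adjustment over the 3 relations computed). Without the 2 lungs farthest from the median marker sum r was 0.726, without the 6 libraries of few genes 0.709, and by plate 0.738 (77 lungs) and 0.852 (55 lungs). With the number of genes detected, r was 0.540 for Cyp2f2 and 0.316 for its marker sum. Cyp2s1 followed the summed ciliated cell markers with r = 0.728 and rho = 0.752 (same p), r = 0.712 without the 2 farthest, 0.774 without the 6 libraries and 0.807 and 0.686 by plate; with the number of genes detected, r was -0.73 for Cyp2s1 and -0.304 for its marker sum. The 5 genes whose ranks over the 140 lungs were most like those of Cyp2f2, among 14458 genes, were Chad, a club cell marker of the list above, Dnah5 (a ciliated cell marker of its list) and Hydin, both needed for ciliary motion, Lpar3, a lysophosphatidic acid receptor, and Kcnk2, a potassium channel (Spearman's rho 0.821, 0.794, 0.787, 0.787 and 0.785).

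No member was called 4 h after any of the 10 smokes (edgeR and DESeq2), where 0.394% of all genes were called for at least 1 smoke. At an unadjusted p under 0.05, 15 of 180 tests of a member (8.33%) passed, against 5.05% over all genes. Cyp2f2 averaged 475.1 to 739.9 TMM CPM over the 10 smokes, on both sides of the saline mean of 693.7 ± 137.1, and neighbouring groups in that order differed by less than their SDs. Cyp2b10 averaged 1039 to 1554 in the 10 smoke groups, all below the saline mean of 1601 ± 217, but the mean of all smokes differed from saline by log2 -0.46 ± 0.18 with an adjusted p of 0.744. No gene at all passed for that mean (0% called; 1 of 18 members at an unadjusted p under 0.05; DESeq2, 0 members).

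Flaming and smoldering smokes were compared at 4 h over 30 lungs each, and no member was called (5 of 18 at an unadjusted p under 0.05; DESeq2, 0), while 2.39% of all genes were. Cyp4f13 came nearest, at 7.84 ± 4.00 TMM CPM after flaming and 5.26 ± 1.55 after smoldering smokes (log2 +0.56 ± 0.19, adjusted p = 0.0819), and Cyp4b1 was at 99.3 ± 44.5 and 142.4 ± 46.5 (log2 -0.61 ± 0.28, adjusted p = 0.212). When the 4 h lungs were fitted alone, both were called, at 11.1% of all genes. The 2 tested family 1 genes differed in the same comparison, with Cyp1a1 at 131.9 ± 217 after flaming and 12.7 ± 7.82 after smoldering smokes (log2 +1.51 ± 0.22, adjusted p = 2.05e-06) and Cyp1b1 higher by 0.96 ± 0.20. An F test for any difference among the 10 smokes at 4 h called no member (1 of 18 at an unadjusted p under 0.05, Cyp4f13; DESeq2, 0), where 0.609% of all genes were called.

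**Figure D3:**
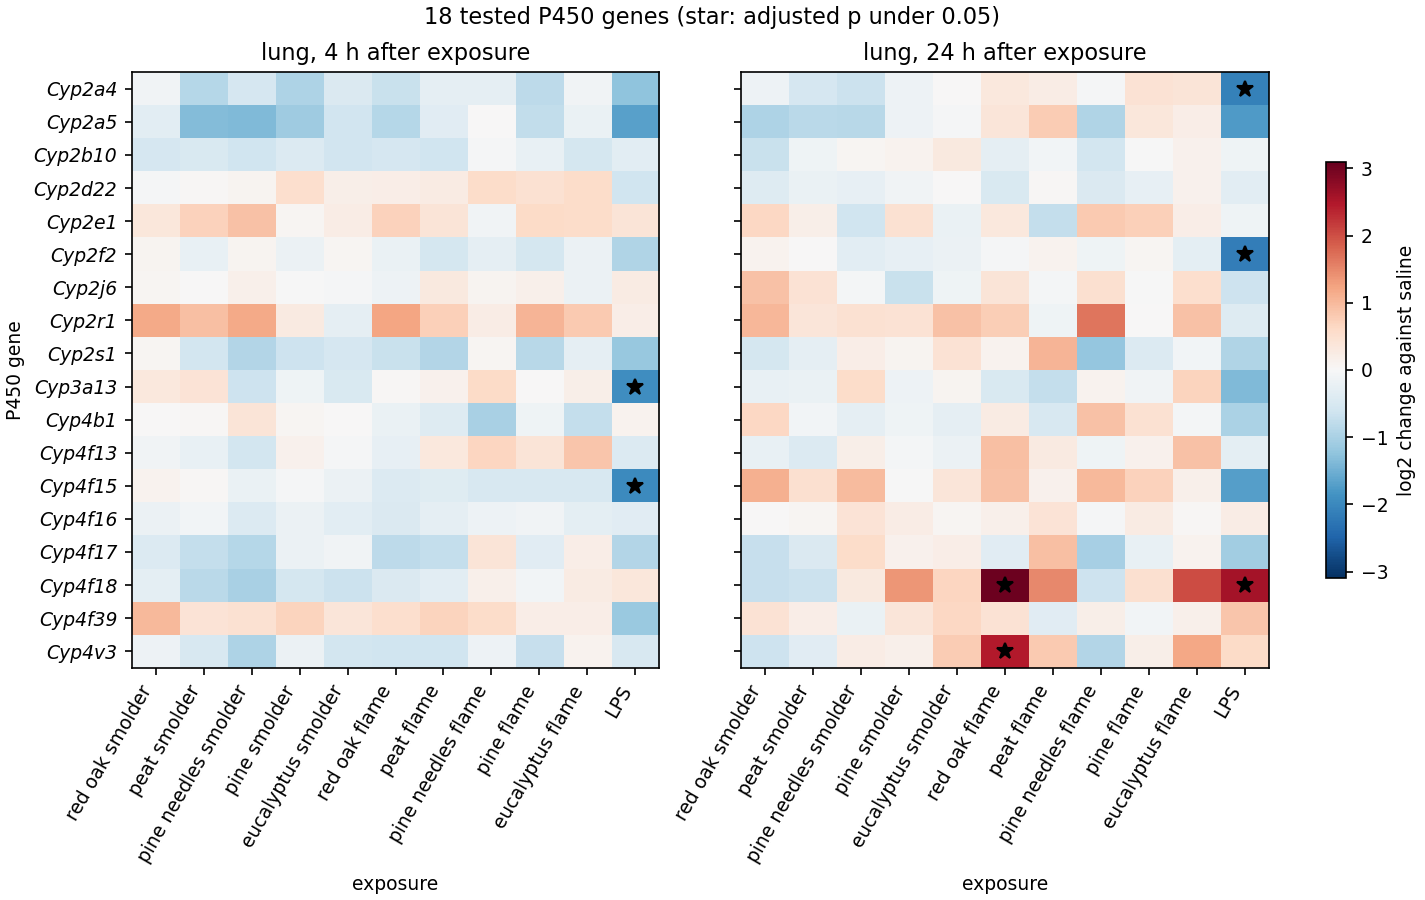
Color gives the log2 change against saline of the 18 tested P450 genes for each smoke and LPS in lung at 4 h (left) and 24 h (right), and a star marks an adjusted p under 0.05. Stars are seen for Cyp3a13 and Cyp4f15 under LPS at 4 h, for Cyp2a4, Cyp2f2 and Cyp4f18 under LPS at 24 h, and for Cyp4f18 and Cyp4v3 after red oak flame smoke at 24 h.

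At 24 h members were called for 1 of the 10 smokes, and those calls rested on a single library. After red oak flame smoke Cyp4v3 was called at log2 +2.45 ± 0.57 (adjusted p = 0.00624) and Cyp4f18 at +3.05 ± 0.79 (0.0185), where 1.75% of all genes were called for this smoke and 1.84% for any smoke. Replicate 6 of this group, the library with the fewest detected genes of the series (9886), held 4513 TMM CPM of Cyp4v3 against 65.95 to 153.9 in the other 5 lungs, and 205.9 of Cyp4f18 against 1.29 to 3.77. Its Cyp4v3 was 1125 CPM of the library total. Without it no member was called for any smoke, and the log2 changes became -0.56 for Cyp4v3 and -0.47 for Cyp4f18. Cyp4f18 was also not called without saline replicate 1, 3, 4 or 5 (adjusted p = 0.0616, 0.0801, 0.0601 and 0.0588). Summed fibroblast markers in the 6 red oak flame lungs ranged from 2094 to 41680 TMM CPM, against 2484 to 11530 in saline lungs, and the part of tissue composition or RNA quality was not tested.

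The other 5 libraries of few detected genes stood apart from their groups in the same members. Cyp4v3 was above, and Cyp4b1 and Cyp2f2 below, all other lungs of the group in each of the 6 libraries. In those 6 Cyp4b1 was at 0 to 9.96 TMM CPM, where the group means of the other lungs were 68.04 to 140.2. Cyp4f17 was above the rest of its group in 6 of 6, Cyp2s1 and Cyp4f13 in 5 of 6 and Cyp4f18 in 4 of 6. Cyp4f15 was below the rest in 4 of 6 and at 0 in 3. These ranks are on the TMM scale, where factors in lung went down to 0.25 and a low factor raises every level. In red oak flame replicate 6, Cyp4f17 was at 17.27 TMM CPM and 4.31 CPM of the library total, and Cyp2s1 at 806.1 and 201.0. The other lungs of that group held 5.65 to 12.37 and 130.7 to 508.4 TMM CPM. Ranks in CPM of the library total were not compared. Cyp2b10 reached 5228 TMM CPM in pine flame replicate 6, against 1114 to 1802 in the other 5.

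An F test for any difference among the 10 smokes at 24 h called 7 of 18 members, Cyp2a5, Cyp2b10, Cyp2s1, Cyp4f13, Cyp4f17, Cyp4f18 and Cyp4v3, where 18% of all genes were called. Without the 6 libraries it called 6 members, of which 5 were among those 7, at 10.4% of all genes, and with the 24 h lungs fitted alone it called Cyp4v3 only, at 0.64% of all genes. Leaving out peat flame replicate 3 alone gave 5 members, at 13.8% of all genes, and leaving out any other of these libraries alone 6 to 8, at 15.9% to 22.9%. The mean of all smokes differed from saline in no member (0 of 18 at an unadjusted p under 0.05; DESeq2, 0), where 0.00692% of all genes were called. Flaming against smoldering smokes gave no call either (5 of 18 at an unadjusted p under 0.05; DESeq2, 0), where 0.111% of all genes were called, with Cyp2a5 at 1029 ± 775 TMM CPM after flaming and 591.9 ± 343 after smoldering smokes (log2 +0.73 ± 0.24, adjusted p = 0.41). Over the single smokes 15 of 180 tests of a member passed an unadjusted p under 0.05, 8.33% against 7.26% over all genes.

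Levels of Cyp2f2 at 24 h averaged 389.6 to 518.6 TMM CPM in the 10 smoke groups, around the saline mean of 479.7 ± 93.8 and within its SD or that of the smoke group. Their SDs were 81.4 to 252 CPM, and the 3 lowest single values (79.2, 115.9 and 160.0) came from libraries of few genes. The LPS lungs of 24 h, at 43.3 to 175.8, were the lowest group of all 24 lung groups, followed by the LPS lungs of 4 h.

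**Figure D4:**
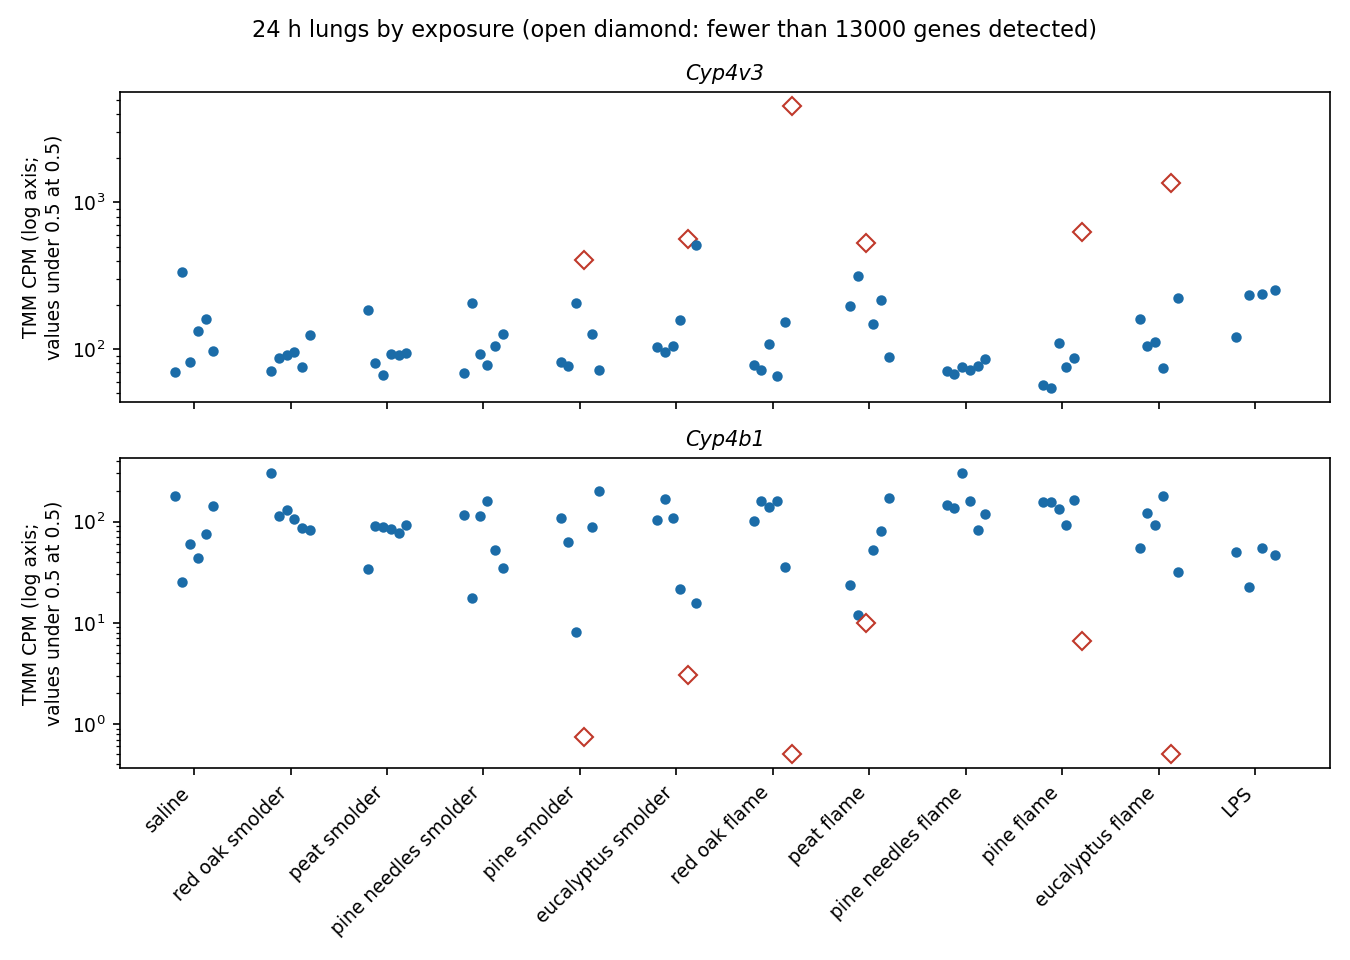
TMM CPM (log axis, values under 0.5 drawn at 0.5) of Cyp4v3 and Cyp4b1 in each lung of 24 h by exposure; open diamonds are the 6 libraries with fewer than 13000 detected genes. In every group that has one, the diamond is the highest point for Cyp4v3 and the lowest for Cyp4b1.

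In heart, smoke placed in the lung was followed by 1 call among the 11 tested members. Cyp4v3 was at 6.95, 5.23, 3.27, 4.32, 4.53 and 2.77 TMM CPM in saline hearts and at 7.47, 12.2, 6.20, 8.48, 9.47 and 7.60 after red oak flame smoke. In 5 of the 6 red oak flame hearts it was above every saline heart, and the sixth was within the saline range. Cyp4v3 rose from 4.51 ± 1.49 to 8.58 ± 2.10, a log2 change of +0.93 ± 0.22 (edgeR adjusted p = 0.00748), where 12% of all genes were called for this smoke and 13.1% for at least 1 of the 4 smokes. Peat smoldering and peat flame hearts held 6.70 ± 1.75 and 6.64 ± 1.66 (log2 +0.57 ± 0.22 and +0.56 ± 0.22, adjusted p = 0.138 and 0.359) and red oak smoldering hearts 3.88 ± 0.83 (log2 -0.21 ± 0.23, adjusted p = 0.952).

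Flaming against smoldering smokes in heart, 12 hearts each, called no member (1 of 11 at an unadjusted p under 0.05; DESeq2, 0), where 0.0358% of all genes were called; the member was Cyp4v3 at log2 +0.57 ± 0.15 (adjusted p = 0.123). Markers of other cell types also rose after red oak flame smoke, and some of them after peat smoldering smoke, where Cyp4v3 was not called. Endothelial markers rose in 5 of 8, among them Kdr, Tek and Tie1, with sums of 315.7 to 497.5 TMM CPM in saline and 560.6 to 682.1 in red oak flame hearts. Fibroblast markers rose in 4 of 5 tested, among them Col1a1 and Pdgfra, with sums of 819.4 to 1066 and 1190 to 2543. After peat smoldering smoke 2 of 8 endothelial markers (Kdr and Cdh5) and 2 of 5 fibroblast markers (Pdgfra and Col1a1) rose. The sums there were 494.0 to 649.5 and 1086 to 2081 TMM CPM. Of the 7 tested cardiomyocyte markers none was called after either smoke (edgeR), and the part of these cell types in the Cyp4v3 result was not tested. Of the regulators of these families Cebpa rose after red oak flame smoke (log2 +0.89 ± 0.20, edgeR adjusted p = 0.00638) and after peat smoldering smoke (log2 +0.94 ± 0.20, 0.0101). Of the partner genes Fdx1, the mitochondrial ferredoxin gene, fell by 0.51 ± 0.15 after red oak flame smoke.

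Cyp2e1 followed fat cell markers among hearts. It ranged from 1.38 to 56.45 TMM CPM over the 30 hearts, and its log2 level followed the summed adipocyte markers (6 genes, 1.03 to 87.45 TMM CPM) with r = 0.890 and rho = 0.818 (permutation p = 1e-05 each, adjusted over the 3 relations 1e-05), and r = 0.852 without the 2 hearts farthest from the median marker sum. With the number of genes detected, r was 0.617 for Cyp2e1 and 0.531 for the marker sum. All hearts were on 1 plate. The group means of 5.06 in saline to 12.9 after peat smoldering smoke gave no call (smallest adjusted p of the 4 smokes 0.277). Cyp2b10 was at 46.8 TMM CPM in saline replicate 4 against 1.66 to 7.93 in the other 5 saline hearts, and red oak flame heart replicate 6 held 2.44 of Cyp2f2 and 3.59 of Cyp2a5, where saline hearts held at most 0.617 and 1.29, with a club cell marker sum of 126.4 against 15.36 to 22.99 in saline hearts.

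**Figure D5:**
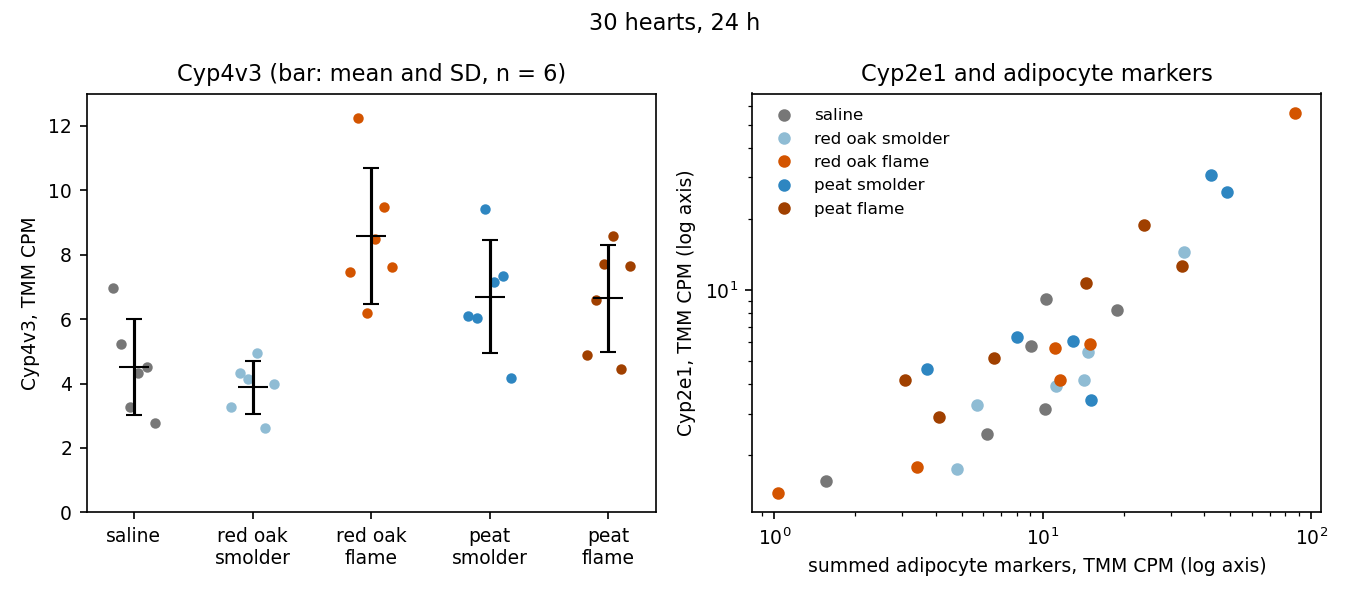
Left, TMM CPM of Cyp4v3 in the 6 hearts of each group at 24 h with mean and SD; right, Cyp2e1 against the summed adipocyte markers in the same 30 hearts (both log axes), colored by group. Red oak flame hearts have the highest mean of Cyp4v3, at 6.20 to 12.2 against 2.77 to 6.95 in saline, with single peat smoke hearts within their range, and Cyp2e1 is higher in hearts with more fat cell markers (Pearson's r = 0.890).

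The remaining members were close to the detection limit in one or both organs. Cyp2r1, a vitamin D hydroxylase, Cyp2j6 and Cyp4f39, which serves skin ceramide synthesis, were tested in lung and called in no comparison with saline. Cyp2b9, Cyp2c29, Cyp2c70, Cyp2d10 and Cyp4f37 failed the filter in all 3 fits, and the liver genes Cyp2c29, Cyp2c70 and Cyp2d10 stayed at or under 3.35 TMM CPM in all libraries. With no filter on low counts, Cyp2b9, Cyp2c29, Cyp2c70 and Cyp2d10 were called among the smokes at 24 h, Cyp2c29 also for flaming against smoldering smokes at 24 h, at means of 0.0518 and 0.410 TMM CPM, and Cyp2b9 and Cyp4f37 between the organs. Cyp2c29 passed the filter in fits without single LPS lungs and was called under LPS at 4 h in 1 of them, without LPS replicate 3.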

How the data were processed

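Probe counts of 170 libraries were deposited by the authors as one table of raw read counts per probe of a targeted transcriptome assay, with no normalization; each column was matched to a sample by its title. Bowtie and DESeq2 are named in the submitters' processing notes, without a role. The library chemistry is named in more than one way in the labels. No genome build is given in the sources used here. The 30146 probe rows were summed per symbol (21450 symbols).

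Counts were tested with edgeR 4.0.16 (R 4.3.3, limma 3.58.1): genes with low counts were removed by filterByExpr (minimum count 10), libraries were scaled by TMM, and robust quasi-likelihood F tests were run with Benjamini-Hochberg adjustment over all genes tested, called under 0.05. One fit held the 140 lungs (group and sequencing plate as terms), one the 30 hearts, and one the 12 saline hearts and lungs of 24 h; each has its own TMM scale. DESeq2 1.42.0 was an alternative. The fits were also run on simulated counts with known changes. Those counts held no plate effect and no libraries of few detected genes, so they cannot show how the fits handle either. The 4 h lungs were on plate 1 except 5 libraries, and most 24 h lungs on plate 2, so time and plate can hardly be told apart. Those 5 libraries were all of pine needles smoldering smoke, whose 6 lungs of 24 h were all on plate 1. Plate was thus also tied to this smoke in the comparisons among smokes. Replicates are separate animals by the numbers in the titles; the same numbers pair heart and lung of one mouse. Correlations used 100000 permutations (scipy 1.17.1), and sequences were aligned with Biopython 1.88.

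The members and the gene lists were chosen with earlier results of these data known. Genes named with values are members with a group mean of at least 10 TMM CPM in any group or with a call, plus Cyp2f2, and at most 4 called genes of each list. Depth was 4.43 to 8.05 M counts (M, 1000000), and a count of 0 allows up to 3 counts; such limits and intervals cover counting error only.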

Additional observations from a re-analysis of the deposited data

Results flagged for a closer look

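The levels of called members, in the groups of the comparisons that called them, were screened for a single library far from the others of its group. Of the levels checked, 24 stood apart (23.3%). The cutoff was meant to flag about 1 in 20 by chance, but that rate cannot be set against this share. The members were picked by their calls, some of which rested on a single library, and several genes were flagged in the same library. Of these, 14 were in the 6 lung libraries of 24 h with few detected genes and 10 elsewhere. All values are TMM CPM, with the range of the other libraries of the group.

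Pine flame replicate 6 stood apart in Cyp2b10 at 5228 (others 1114 to 1802), Cyp2s1 at 589.2 (123.8 to 199.9), Cyp4f13 at 18.66 (2.98 to 7.99), Cyp4f17 at 34.95 (3.39 to 6.53), Cyp4f18 at 19.71 (1.10 to 4.65) and Cyp4v3 at 631.0 (54.6 to 110.9). Red oak flame replicate 6 did so in Cyp4f13 at 51.1 (4.98 to 8.19), Cyp4f18 at 205.9 (1.29 to 3.77) and Cyp4v3 at 4513 (65.95 to 153.9). Eucalyptus flame replicate 5 did so in Cyp4f13 at 38.34 (4.18 to 11.98), Cyp4f18 at 58.4 (1.76 to 22.9) and Cyp4v3 at 1349 (74.2 to 222.3). Pine smolder replicate 4 did so in Cyp4f13 at 15.75 (2.58 to 7.29) and Cyp4f18 at 49.13 (1.73 to 7.95).

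Among libraries with at least 13000 detected genes, saline lung replicate 2 of 24 h held 13.51 of Cyp4f18 (1.47 to 3.16) and 334.9 of Cyp4v3 (70.4 to 160.4). That library had 13196 detected genes, against 14657 to 15400 in the other saline lungs of 24 h. Saline lung replicate 1 of 4 h held 27.34 of Cyp4f15 (9.42 to 14.6). At 24 h, peat smolder replicate 1 held 14.14 of Cyp4f17 (6.23 to 7.73) and 185.8 of Cyp4v3 (67.1 to 94.3), red oak smolder replicate 6 held 1922 of Cyp2b10 (1055 to 1364), red oak smolder replicate 5 held 403.7 of Cyp2s1 (151.9 to 226.6), and pine needles smolder replicate 2 held 10.8 of Cyp4f18 (0.581 to 4.18). In heart, saline replicate 4 held 46.77 of Cyp2b10 (1.66 to 7.93) and saline replicate 1 held 30.48 of Cyp4b1 (13.2 to 18.96).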

How the results depend on the processing

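Members called differed from the main values of 2 at 4 h and 3 at 24 h for LPS, 2 for any smoke and 7 among smokes at 24 h, and 0 for flaming against smoldering at either time and among smokes at 4 h, as follows; the cause was not tested. With no filter on low counts, where all 24 members entered the test, LPS at 4 h gave 1 (5.48% of all genes), flaming against smoldering at 24 h gave 1 (Cyp2c29; 0.115%) and the smokes at 24 h 11 (17.3%). DESeq2's size factors in edgeR gave 1 for LPS at 4 h (9.25%) and 4 at 24 h (12.2%). They gave 6 for the smokes at 24 h (14.8%). DESeq2 gave 3 for LPS at 4 h (11%) and 5 at 24 h (15%). For red oak flame smoke at 24 h DESeq2 gave 3 (5.49%). The fit with no plate term gave 4 for LPS at 24 h (12.2%). With the libraries of 1 time only, LPS at 4 h gave 4 (17.1%), flaming against smoldering 2 (11.1%) and the smokes 1 (4.31%). At 24 h those fits gave 2 for LPS (8.12%), 0 for any smoke and 1 for the smokes (0.64%). Without the 6 libraries of few genes, LPS gave 3 at 4 h (14.8%) and 5 at 24 h (18.4%). Any smoke at 24 h then gave 0 and the smokes at 24 h gave 6 (10.4%). Flaming against smoldering and the smokes at 4 h gave 1 each, Cyp4f13 (8.76% and 1.72%). Leaving out 1 library gave 0 to 2 for LPS at 4 h (6.24% to 9.03%), 1 to 5 for LPS at 24 h (6.73% to 12.4%) and 0 to 3 for any smoke at 24 h. For the smokes at 24 h it gave 5 to 8 (13.8% to 22.9%). After red oak flame smoke in lung, Cyp4v3 and Cyp4f18 turned to log2 changes of -0.56 and -0.47 without replicate 6, and of -0.60 and -0.55 without the 6 libraries; with 1 library left out they ranged from -0.56 to 2.85 and from -0.47 to 3.81. The comparison of the organs gave 11 to 18 members over 12 alternatives, and 12 with the animal as replicate block, which pairs heart and lung by the number in the titles; the 18 were with no filter, at 60.1% of all genes. Cyp4v3 after red oak flame smoke in heart was called in 15 of 15, at log2 0.79 to 1.08. Alternatives that leave out red oak flame libraries or single libraries of few genes were chosen after seeing the data. Depth limits the members with few counts, of which some were called only with no filter.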
